A study of Mus musculus with 6 samples.

Results

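RAW 264.7 is a mouse macrophage-like cell line, and expression of 37 genes encoding chromatin remodellers and histone-modifying enzymes was compared in it after treatment and without. The tested cells received lipopolysaccharide (LPS), the outer membrane glycolipid of Gram-negative bacteria, at 100 ng/ml together with LPS-binding protein (LBP), which passes LPS to its receptor, at 100 pM, and were cultured for 16 hours. The untreated cells were cultured for the same time. Each of 6 dual-colour arrays carried RNA of both: 3 arrays held treated RNA in Cy5 and untreated RNA in Cy3, 3 held the dyes the other way round, with sets numbered 1, 2 and 3 in either case. Whether the sets came from separate cultures is not in the labels, so the p-values speak of the spread among these arrays, possibly a technical one. Part of the labels name the cell line as 264.4; 264.7 is used here.

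The genes were taken by symbol alone. They are all those on the array, named singly by a probe, that begin with Hdac, Kdm, Kmt, Smarc, Chd, Sirt, Setd, Ehmt or Kat followed by a digit or, for Smarc, a subunit letter. Of 10698 named genes on the array, 37 qualified, and 34 of these had a ratio on all 6 arrays, out of 9607 such genes in all. No Ehmt gene was among them. The 37 comprise 8 histone deacetylases, 3 sirtuins, 3 lysine acetyltransferases, 2 lysine methyltransferases, 2 Setd proteins, 6 lysine demethylases and 13 remodeller genes. Chd1l was added to the CHD family after its place under the symbol rule was seen. Single probes stood behind 31 of the 34 measured genes, and probe sequences were not analysed here, so a probe that also binds a relative would not be seen.

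DNA in the nucleus is wound on histones, and the enzymes of this group set how tightly. Acetyltransferases and methyltransferases write marks on histone tails, deacetylases and demethylases erase them, and ATP-dependent remodellers such as SWI/SNF and CHD proteins slide or evict nucleosomes. In macrophages, LPS-induced genes are known to depend on such factors: deacetylase complexes hold inflammatory genes in check before stimulation, and SWI/SNF is recruited to a subset of them afterwards. Several of these enzymes also act on proteins other than histones.

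Values are log2 ratios of treated over untreated cells, so -1 would be a fall to 50% of the untreated level and 1 a doubling. They are relative to the centre of each array, and give no absolute level, so macrophage markers could be looked up only as ratios and the cell type could not be checked by level. The table does not state which dye is the numerator, nor how its arrays were centred. Cy5 over Cy3 is the likely reading, from the naming of the Cy5 sample as test, and under it the LPS-induced cytokine genes Il6 and Il1b stood at 5.11 ± 0.47 and 4.63 ± 0.55 (SD, n = 3 sets; limma adjusted p = 3.38e-06 for Il6). Of 11 macrophage markers 8 were measured, of which 7 were higher in treated cells, such as Adgre1 (1.79), and Csf1r was lower (-0.27). Arrays of the same orientation correlated at 0.77 to 0.832 over all probes and arrays of opposite orientation, once turned, at 0.585 to 0.831. Errors below are the SD over 3 sets, each the mean of its 2 orientations, and adjusted p-values are from limma over all 9607 genes with a threshold of 0.05. RNA came from whole cultures, where fewer expressing cells and less RNA per cell cannot be told apart.

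In cells given LPS with LBP, 12 of the 34 measured chromatin genes fell and 2 rose. The falls were those of the class IIa deacetylases Hdac5 and Hdac7, the demethylases Kdm2b, Kdm3b and Kdm4b, the SWI/SNF subunits Smarca2, Smarcb1, Smarcc1 and Smarcd1, the acetyltransferase Kat2a, the methyltransferase Kmt2b and Setd3. The rises were those of the sirtuins Sirt2 and Sirt3. All were modest: no measured member reached a 2-fold change, against 4.49% of all genes, and the falls ranged between 1.17-fold and 1.57-fold. Among all 9607 genes the test called 31.4%, with 16.8% higher and 14.6% lower. Of the chromatin genes 41.2% were called, with 5.88% higher and 35.3% lower. These shares are set side by side as a description, since the group was proposed with results of these data in view, and no test of the group as a whole was made. The median log2 ratio was -0.08 over the 34 and -0.01 over all genes, and the median absolute ratio was 0.21 against 0.14.

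All 14 called genes had one sign on all 6 arrays. So did 2 genes without a call, Hdac1 and Kdm6a, which gives 16 of 34 (47.1%), against 35.6% of all genes. Leaving out 1 set at a time, 6 of the 14 calls held each time: Hdac5, Hdac7, Kdm3b, Smarca2, Smarcd1 and Sirt2. The same 6 were also called with the same sign under the other 10 alternative settings tried. The count of genes that fell was 6 without set 1 and 7 without set 2, and the count that rose was 1 in both cases. The share of the group called was then 20.6% without set 1 and 23.5% without set 2, against 22.5% and 23.6% of all genes, so the higher share of calls in the group was absent in both. Genes that fell made up 17.6% and 20.6% of the group, against 10% and 9.9% of all genes.

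**Figure D1:**
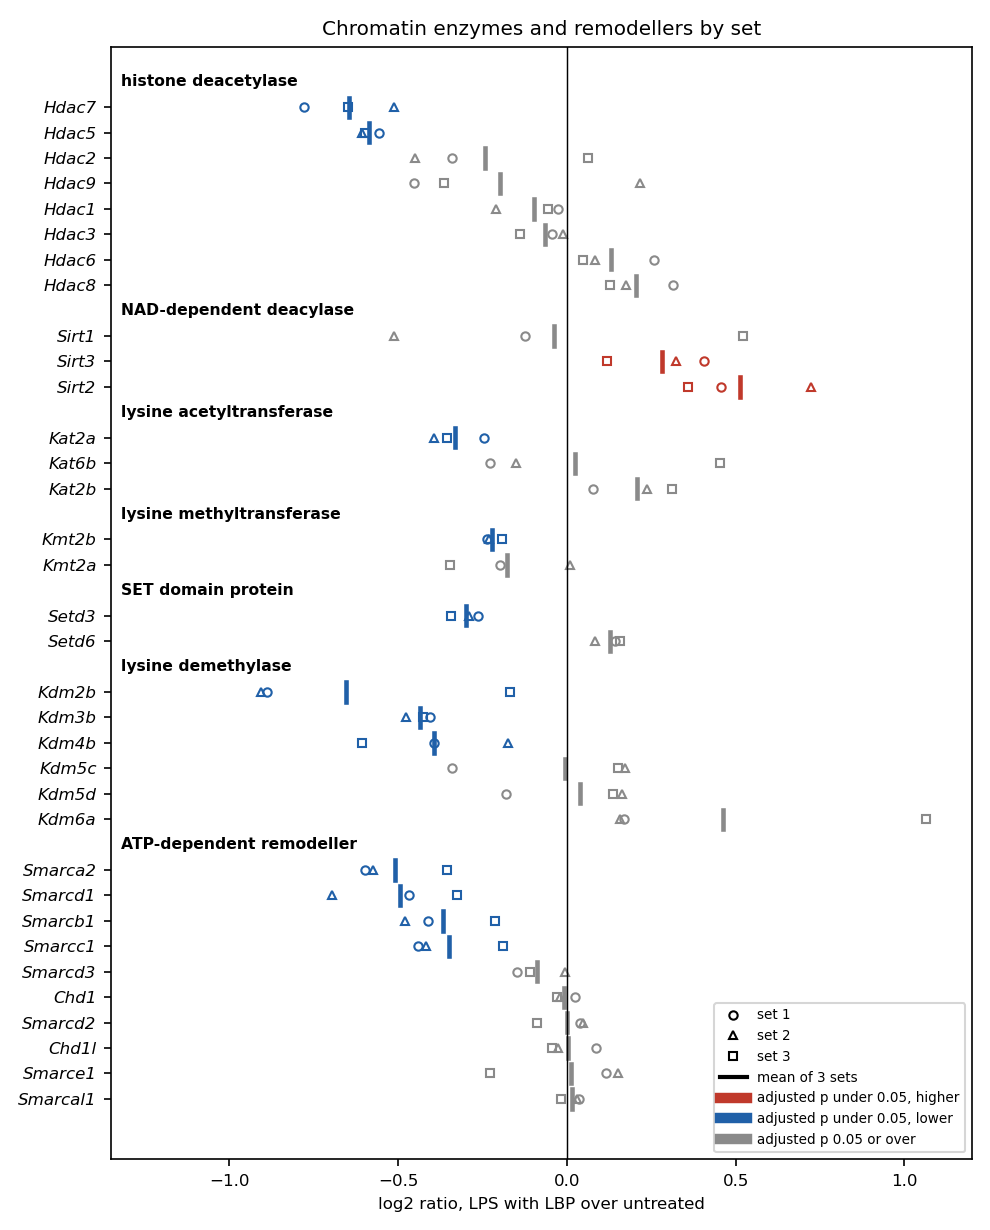
Log2 ratios of treated over untreated cells (horizontal axis) for the 34 measured genes, ordered by role and then by mean. Open symbols are sets 1, 2 and 3, bars are their means, and colour gives the limma call; the 12 genes called lower include Hdac7 at -0.65 and Hdac5 at -0.59, and the 2 called higher are Sirt2 at 0.51 and Sirt3 at 0.28.

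RefSeq windows (assembly GRCm38.p6, 250 bases before to 50 after the annotated start) were matched by symbol for 30 of the 37 genes, with 43 windows in all. Hdac5, Smarca2, Smarcd1 and Sirt2 are shown because their calls held in every setting and each has 1 window in the table. That of Hdac5 is chr11:102230123-102230422 on the minus strand and that of Smarca2 is chr19:26604910-26605209 on the plus strand. That of Smarcd1 is chr15:99702037-99702336 and that of Sirt2 is chr7:28766502-28766801, both on the plus strand. Sequences run 5′ to 3′ on the gene's strand, and capitals mark CCAAT boxes (the NF-Y motif), GC boxes (GGGCGG) and E2F letters (TTTCCCGC or TTTGGCGC) on either strand, where an overlap of motifs appears as 1 run.
Hdac5: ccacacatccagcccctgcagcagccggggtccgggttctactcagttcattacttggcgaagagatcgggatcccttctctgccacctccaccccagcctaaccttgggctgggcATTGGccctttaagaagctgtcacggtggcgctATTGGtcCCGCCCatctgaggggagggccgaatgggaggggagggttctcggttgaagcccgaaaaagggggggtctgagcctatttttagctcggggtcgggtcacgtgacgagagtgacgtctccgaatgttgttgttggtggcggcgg
Smarca2: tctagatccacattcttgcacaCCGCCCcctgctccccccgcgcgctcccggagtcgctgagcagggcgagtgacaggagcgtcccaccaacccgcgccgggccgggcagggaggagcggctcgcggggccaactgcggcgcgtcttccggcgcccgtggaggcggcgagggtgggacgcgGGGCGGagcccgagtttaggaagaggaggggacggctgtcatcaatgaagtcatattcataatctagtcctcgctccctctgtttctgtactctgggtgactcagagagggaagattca
Smarcd1: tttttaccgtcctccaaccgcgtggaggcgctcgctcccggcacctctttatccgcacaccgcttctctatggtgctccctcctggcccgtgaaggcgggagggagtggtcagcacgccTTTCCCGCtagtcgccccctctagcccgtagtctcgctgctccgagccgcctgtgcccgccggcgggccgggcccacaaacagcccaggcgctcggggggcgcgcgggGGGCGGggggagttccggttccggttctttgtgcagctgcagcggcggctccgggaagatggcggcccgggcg
Sirt2: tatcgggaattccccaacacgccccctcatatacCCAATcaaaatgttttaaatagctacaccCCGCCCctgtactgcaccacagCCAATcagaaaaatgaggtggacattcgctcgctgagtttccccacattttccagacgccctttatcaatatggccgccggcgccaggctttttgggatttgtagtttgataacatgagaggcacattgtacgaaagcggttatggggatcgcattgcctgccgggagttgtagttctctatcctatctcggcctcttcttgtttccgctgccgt

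All 4 windows held a GC box, once in Hdac5, Smarcd1 and Sirt2 and in 2 places in Smarca2. CCAAT letters occurred in 2 places in Hdac5 and in 2 in Sirt2 and were not matched in Smarca2 or Smarcd1, and the E2F letters were matched in Smarcd1 only among the 4. The windows held between 16 CG dinucleotides (Sirt2) and 35 (Smarcd1). Across all 43 windows of the group, 62.8% held a GC box, against 46.2% of the 21263 windows of protein-coding genes and 35.7% of all 32851 windows in the table. The median was 24 CG dinucleotides per window in the group, against 13 in protein-coding genes and 7 in all windows. CCAAT letters were in 34.9% of the group's windows and in 37.4% of all windows.

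Letters of motifs linked to LPS signalling were searched on both strands too. GAAANNGAA, part of the interferon-stimulated response element, was in 2 of the 43 windows (4.65%), against 8.56% of all windows. GGGANNTTC, 1 partial form of a kappaB site, was in 0 of 43, against 3.94% of all windows, but it misses common forms of that site. The wider kappaB consensus, searched after these data were seen, was in 8 of 43 windows (18.6%), against 8.46% of all windows and 9.25% of those of protein-coding genes. The windows of Sirt2, Smarca2 and Smarcd1 printed above were among the 8, and 2 of the 8 are overlapping windows of Kat6b. The others are windows of Chd4, Kdm2b and Sirt3. These consensus letters are rich in G and C. Median GC content was 62% in the group's windows, against 56.3% in those of protein-coding genes and 52.7% in all. Its part in the shares was not tested. The E2F letters were in 1 of 43 (2.33%), against 1.56%. A match is a description and not a bound site, and an unmatched motif says only that those letters are not in these windows. Windows of 1 gene can overlap, as those of Kdm2b do.

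Of the 8 deacetylases 2 fell and 0 rose. Class IIa enzymes, which have weak catalytic activity of their own and move between cytoplasm and nucleus on phosphorylation to regulate MEF2 targets, include both genes that fell. The difference between classes was not tested, and neither class IIa Hdac9 (mean -0.20) nor class I Hdac2 (-0.24) was called. Hdac7 read -0.82, -0.80 and -0.66 on the 3 arrays whose treated RNA carried Cy5 (sets 1, 2 and 3) and -0.74, -0.22 and -0.64 on those with treated RNA in Cy3. Every array was below 0, and the Cy3 array of set 2 was the nearest to it. The mean was -0.65 ± 0.13 (adjusted p = 0.00122), which is 63.9% of the untreated level. Hdac5 read -0.57, -0.62 and -0.60 in the Cy5 orientation and -0.54, -0.60 and -0.60 in the Cy3 orientation. With the arrays this close, its mean of -0.59 ± 0.03 (adjusted p = 0.000942, 66.6% of the untreated level) had the lowest adjusted p of the group.

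Hdac9, the other class IIa enzyme on the array, read -0.42, 0.09 and -0.36 with treated RNA in Cy5 and -0.48, 0.34 and -0.37 with treated RNA in Cy3. Set 2 was above 0 and sets 1 and 3 below it in both orientations, so the mean of -0.20 ± 0.36 was not called (adjusted p = 0.329). Without set 2 it was called at -0.41 (adjusted p = 0.0236, and between that and 0.816 over all settings tried).

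Hdac2, a class I enzyme of the Sin3, NuRD and CoREST complexes, read -0.34, -0.45 and 0.04 in the Cy5 orientation and -0.34, -0.45 and 0.09 in the Cy3 orientation. The orientations matched closely, and set 3 stood above 0 in both. The mean was -0.24 ± 0.27 (adjusted p = 0.147), and without set 3 it was -0.39 (adjusted p = 0.00617, and between that and 0.491 over all settings). Hdac1, its close relative and partner in the same complexes, was at -0.10 ± 0.10 (adjusted p = 0.401), with all 6 arrays below 0 but as near as -0.01. Hdac3, the deacetylase of the NCoR and SMRT corepressors, was at -0.06 ± 0.07 (adjusted p = 0.572), and its 3 probes stood at -0.06, -0.05 and -0.08. The 95% interval of Hdac3 ran from -0.23 to 0.10 and that of Hdac1 from -0.27 to 0.08. Hdac8, a class I enzyme outside those complexes, was at 0.21 ± 0.10 (adjusted p = 0.079). Hdac6, a mainly cytoplasmic enzyme that deacetylates tubulin, was at 0.13 ± 0.11 (adjusted p = 0.266). Both were called higher from the Cy3 orientation alone (0.33 with adjusted p = 0.0265, and 0.30 with adjusted p = 0.0406), and Hdac8 also with the 6 arrays as separate replicates (adjusted p = 0.0376). In the Cy5 orientation, Hdac8 read 0.30, -0.06 and 0.02 and Hdac6 read 0.17, -0.22 and -0.07.

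Sirtuins are deacylases that use NAD, which ties them to metabolism, and both rises of the group were among them. Sirt2, a mostly cytoplasmic enzyme that deacetylates tubulin and, in mitosis, histone H4, read 0.34, 0.48 and 0.26 with treated RNA in Cy5 and 0.57, 0.96 and 0.46 with treated RNA in Cy3. All arrays were above 0, with the Cy3 array higher in each set. The mean was 0.51 ± 0.19 (adjusted p = 0.00545), or 143% of the untreated level. Sirt3, the main deacetylase of mitochondria, read 0.40, 0.21 and 0.10 in the Cy5 orientation and 0.41, 0.44 and 0.14 in the Cy3 orientation, lowest in set 3 in both. Its mean was 0.28 ± 0.15 (adjusted p = 0.0388). Leaving out set 1 (adjusted p = 0.204) or set 2 (0.14) ended that call, as did the Cy5 arrays alone (0.172), with a lowest value of 0.0103 over the settings tried.

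Sirt1, a nuclear enzyme that deacetylates histones and the NF-kappaB subunit RelA, gave no single direction. Its arrays read -0.37, -0.77 and 0.38 with treated RNA in Cy5 and 0.12, -0.26 and 0.67 with treated RNA in Cy3. Set 3 was the highest and set 2 the lowest in either orientation, and the 95% interval of the mean of -0.04 ran from -0.461 to 0.385 (adjusted p = 0.912). Without set 3 it was called lower at -0.32 (adjusted p = 0.0385, and between that and 0.994 over all settings).

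Among lysine acetyltransferases 1 of 3 fell. Kat2a (also known as Gcn5), the catalytic subunit of the SAGA and ATAC coactivators, read -0.22, -0.45 and -0.30 in the Cy5 orientation and -0.27, -0.33 and -0.41 in the Cy3 orientation. All arrays lay below 0, and the mean was -0.33 ± 0.08 (adjusted p = 0.0127, 79.4% of the untreated level). Leaving out set 2 ended the call (adjusted p = 0.0629), as did the Cy5 arrays alone (0.0658); the lowest value was 0.00223. Its other probe had an exact 0, taken as no ratio, on every array.

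Kat2b (PCAF), the paralogue of Kat2a that can take its place in those complexes, could not be read from the mean of its 2 probes. One probe stood at -2.47, -2.15 and -2.33 on the Cy5 arrays and at 2.40, 2.73 and 1.81 on the Cy3 arrays, so its sign followed the dye. The difference between dyes was larger than for all but 7 of the 9607 genes when both probes were averaged. The second probe read 0.16, 0.08 and 0.85 with treated RNA in Cy5 and 0.22, 0.29 and 0.92 with treated RNA in Cy3, all above 0 and highest in set 3, with a mean of 0.42 (adjusted p = 0.0678 over probes). The mean of both probes was 0.21 ± 0.12 (adjusted p = 0.0877), and it was -0.98 on the Cy5 arrays alone (adjusted p = 0.00202) and 1.40 on the Cy3 arrays alone. It was also called under quantile normalization (adjusted p = 0.0261) and with the 6 arrays as separate replicates (0.0468). Kat6b (MORF), the acetyltransferase of a MYST complex, read -0.26, -0.17 and 0.49 and then -0.20, -0.14 and 0.42 in the Cy5 and the Cy3 orientation, with set 3 alone above 0. Its mean was 0.02 ± 0.37 (adjusted p = 0.925).

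**Figure D2:**
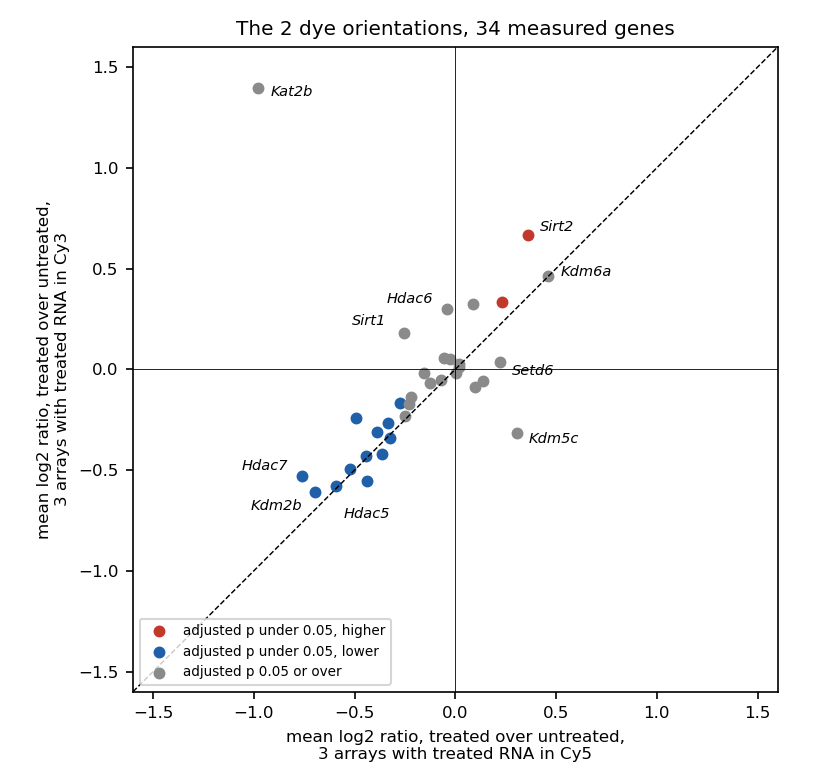
Mean log2 ratio of treated over untreated cells over the 3 arrays whose treated RNA carried Cy5 (horizontal) against the 3 arrays with treated RNA in Cy3 (vertical), 1 point per measured gene, coloured by limma call; the dashed line marks equal values. Kat2b lies far off the line at -0.98 and 1.40, Kdm5c lies off it on the other side, and the called genes lie in the quadrants of one sign.

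The 2 Kmt genes on the array, Kmt2a (MLL) and Kmt2b, both encode methyltransferases that place H3K4 methylation at promoters. Kmt2b read -0.32, -0.27 and -0.23 with treated RNA in Cy5 and -0.15, -0.19 and -0.15 with treated RNA in Cy3. All 6 arrays were below 0, the Cy3 ones nearer to it. The mean of -0.22 ± 0.02 had an adjusted p of 0.0481, the weakest call of the group, and 9 of 13 alternatives ended it (adjusted p between 0.0098 and 0.187). Kmt2a read -0.21, -0.08 and -0.37 on the Cy5 arrays and -0.19, 0.10 and -0.32 on the Cy3 arrays. Its mean was -0.18 ± 0.18 (adjusted p = 0.184), with a 95% interval from -0.39 to 0.03. The difference between these paralogues was not tested.

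Of the Setd proteins, Setd3 fell and Setd6 did not pass. Setd3, a histidine methyltransferase of actin despite its SET domain, read -0.34, -0.28 and -0.38 in the Cy5 orientation and -0.19, -0.30 and -0.31 in the Cy3 orientation. It was below 0 on every array, with a mean of -0.30 ± 0.04 (adjusted p = 0.0162). Leaving out set 1 (adjusted p = 0.0655) or set 2 (0.0586) ended the call, as did either orientation alone (0.0506 and 0.0533); the lowest value was 0.00248. Setd6, which methylates RelA, was at 0.13 ± 0.04 (adjusted p = 0.226), although single arrays ran from -0.32 to 0.48.

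Among demethylases, 3 of 6 fell and 0 rose. Kdm2b, which binds unmethylated CpG islands and brings a variant Polycomb complex to them, had the lowest mean of the group. It read -0.92, -0.97 and -0.20 with treated RNA in Cy5 and -0.86, -0.84 and -0.13 with treated RNA in Cy3. Sets 1 and 2 were near -0.9 and set 3 much nearer 0, in both orientations. The mean was -0.65 ± 0.42 (adjusted p = 0.0154), and the mean of sets 1 and 2 was -0.90. Leaving out set 1 (-0.54, adjusted p = 0.0833) or set 2 (-0.53, adjusted p = 0.0814) ended the call, and leaving out set 3 gave the lowest value (2.11e-06).

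Kdm3b, an H3K9 demethylase, was steadier. Its arrays read -0.46, -0.48 and -0.40 in the Cy5 orientation and -0.35, -0.48 and -0.45 in the Cy3 orientation, for a mean of -0.44 ± 0.04 (adjusted p = 0.00347, 73.9% of the untreated level). Kdm4b, which demethylates H3K9 and H3K36, read -0.35, -0.16 and -0.57 on the Cy5 arrays and -0.44, -0.19 and -0.64 on the Cy3 arrays. All were below 0, furthest in set 3 and least in set 2. The mean was -0.39 ± 0.22 (adjusted p = 0.0203), a call lost without set 1 (adjusted p = 0.084) and on the Cy5 arrays alone (0.0683), with a lowest value of 0.00504.

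The X-linked Kdm6a (UTX), which removes the repressive H3K27 methyl mark, read 0.15, 0.15 and 1.09 with treated RNA in Cy5 and 0.20, 0.16 and 1.04 with treated RNA in Cy3. All 6 arrays were above 0, and set 3 stood far above the others. The mean of 0.46 ± 0.52 was not called (adjusted p = 0.0942). The mean of sets 1 and 2 was 0.16. It was called when the 6 arrays were taken as separate replicates (adjusted p = 0.0497, and up to 0.269 over all settings). Kdm5c and Kdm5d, X- and Y-linked relatives that remove H3K4 methylation, were at -0.01 ± 0.29 (adjusted p = 0.98) and 0.04 ± 0.19 (adjusted p = 0.809). In both, set 1 lay below 0 (-0.34 and -0.18) and sets 2 and 3 above it (0.17 and 0.15 for Kdm5c, 0.16 and 0.14 for Kdm5d). Kdm5c also differed between dyes, at -0.10, 0.49 and 0.53 with treated RNA in Cy5 and -0.58, -0.15 and -0.22 with treated RNA in Cy3.

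Subunits of SWI/SNF, the complex that uses ATP to move nucleosomes at promoters and enhancers, gave 4 falls. Smarca2 (BRM), one of its alternative ATPases, read -0.68, -0.51 and -0.38 in the Cy5 orientation and -0.51, -0.64 and -0.33 in the Cy3 orientation. Every array was below 0, and the mean was -0.51 ± 0.13 (adjusted p = 0.00341, 70.3% of the untreated level). Smarca4, the other ATPase, is not among the 37 genes.

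Of the 6 measured core subunits, 3 fell. Smarcd1 (BAF60A), a variant subunit that contacts transcription factors, read -0.46, -0.60 and -0.25 with treated RNA in Cy5 and -0.48, -0.79 and -0.40 with treated RNA in Cy3, with a mean of -0.50 ± 0.19 (adjusted p = 0.00613). Smarcb1 (SNF5), which anchors the complex on the nucleosome, read -0.44, -0.76 and -0.27 on the Cy5 arrays and -0.38, -0.20 and -0.15 on the Cy3 arrays, with a mean of -0.37 ± 0.14 (adjusted p = 0.0133). Smarcc1 (BAF155), a scaffold of the complex, read -0.44, -0.50 and -0.23 in the Cy5 orientation and -0.44, -0.33 and -0.15 in the Cy3 orientation, with a mean of -0.35 ± 0.14 (adjusted p = 0.0162). In these 3 genes and in Smarca2, all arrays were below 0 and set 3 was the nearest to it in both orientations. The calls of Smarcb1 and Smarcc1 were lost without set 1 (adjusted p = 0.0755 and 0.0979) and without set 2 (0.0697 and 0.0781), and that of Smarcb1 also on the Cy3 arrays alone (0.0828). Their lowest values over all settings were 0.00243 and 0.00319.

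The other core subunits did not pass. Smarcd2 and Smarcd3, the alternatives to Smarcd1 in the complex, were at -0.00 ± 0.08 (adjusted p = 0.997) and -0.09 ± 0.07 (adjusted p = 0.436). The 95% interval ran from -0.17 to 0.17 for Smarcd2 and from -0.26 to 0.08 for Smarcd3, against -0.71 to -0.28 for Smarcd1. The difference between the 3 paralogues was not tested. The 2 complete probes of Smarcd2 opposed each other, at -0.25 and 0.24 (adjusted p = 0.0576 and 0.0495 over probes), and its remaining probe had a ratio on 5 arrays. Both complete probes also differed between dyes. The first read 0.05, 0.04 and -0.17 with treated RNA in Cy5 and -0.29, -0.54 and -0.55 with treated RNA in Cy3. The second read 0.30, -0.30 and -0.25 and then 0.11, 0.99 and 0.61. In set 2, Smarcd3 read -0.37 in the Cy5 orientation and 0.36 in the Cy3 orientation. The intervals rest on set means, where such differences average out, so they do not show this spread. Smarce1 (BAF57), an HMG-box subunit, was at 0.01 ± 0.21 (adjusted p = 0.947), with set 3 at -0.23 and sets 1 and 2 at 0.12 and 0.15.

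The measured remodellers of the group outside SWI/SNF, Chd1, Chd1l and Smarcal1, did not pass. Chd1, which acts with elongating RNA polymerase, was at -0.01 ± 0.03 (adjusted p = 0.952, 95% interval from -0.17 to 0.15). Chd1l (ALC1), a remodeller switched on by poly(ADP-ribose), was at 0.00 ± 0.07 (adjusted p = 0.979). Its arrays read 0.21, 0.07 and 0.01 with treated RNA in Cy5 and -0.04, -0.12 and -0.10 with treated RNA in Cy3. The sign of Chd1l thus followed the dye. Smarcal1, which anneals DNA at stalled replication forks, was at 0.02 ± 0.03 (adjusted p = 0.908). The 95% intervals of these 3 genes reached no further from 0 than 0.178, the upper bound of Smarcal1. They rest on set means, so they do not show the spread between dyes.

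The remaining 3 genes lacked a ratio on at least 1 array and were not part of the test. Chd4, the ATPase of the NuRD corepressor, read 0.05, 0.19 and 0.17 with treated RNA in Cy5 and -0.44 and -0.40 in sets 1 and 2 with treated RNA in Cy3, so its sign followed the dye. Smarcad1, a remodeller linked to heterochromatin, read -0.64, -0.80 and 0.53 on the Cy5 arrays and -0.38 and -0.76 in sets 1 and 2 on the Cy3 arrays. In a fit that admitted 2 complete sets it stood at -0.65 (adjusted p = 0.00749), a value that leaves out set 3, where its only array was above 0. Smarca5, the ISWI ATPase, had a ratio on 1 array only (0.40).

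Set 3 departed from the others in several of these genes. It was the set farthest from the mean of the other two in 15 of 34 members (44.1%), against 34.6% of all genes. Set 3 exceeded the mean of sets 1 and 2 by 0.90 in Kdm6a, 0.84 in Sirt1, 0.73 in Kdm2b, 0.64 in Kat6b and 0.46 in Hdac2. Both arrays of set 3 showed this in each of the 5 genes. The values of Hdac5, Hdac7 and Kdm3b in set 3 lay within 0.02 of the mean of the other sets. Across the 11639 probes that named 1 gene and had 6 ratios, the 2 arrays of set 3 deviated together from their orientation's mean (r = 0.559). Those of set 1 (0.186) and set 2 (0.0578) did so less, and probes are not independent replicates. What distinguishes set 3 is not given in the labels. Fits without it are given with the genes above, and the cause of its departure was not tested.

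**Figure D3:**
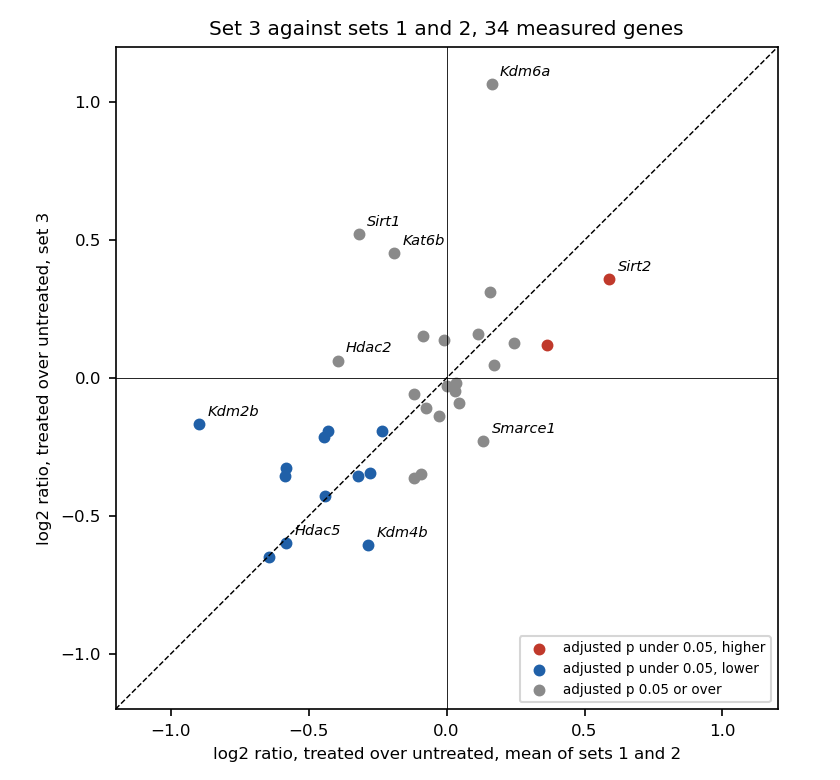
Log2 ratio of treated over untreated cells in set 3 (vertical) against the mean of sets 1 and 2 (horizontal) for the 34 measured genes, coloured by limma call, with a dashed line at equal values. Kdm6a, Sirt1, Kat6b, Kdm2b and Hdac2 lie above the line by 0.90, 0.84, 0.64, 0.73 and 0.46, while Hdac5 lies on it.

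Genes that work with these enzymes but fall outside the symbol rule were read from 9 lists. Of 178 listed genes 104 were measured, of which 36 fell (34.6%) and 10 rose (9.62%), with a median of -0.13, beside 14.6% and 16.8% and a median of -0.01 over all genes. As with the enzymes, these shares are descriptions without a test of the list. The lists held 46 calls in all, and 37, 31 and 43 without sets 1, 2 and 3. Over all genes the count was 3018, and then 2158, 2270 and 2990.

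Readers of histone marks and DNA methylation genes fell in 7 of 12 cases and rose in 0. Brd3, a bromodomain protein that binds acetylated histones, fell most (log2 -0.92 ± 0.01, adjusted p = 0.000126), followed by the DNA methyltransferase Dnmt3b (-0.83 ± 0.27, adjusted p = 0.00153). Brd2, the close relative of Brd3, was at 0.15 and did not pass. The heterochromatin protein Cbx3 (-0.76), and Uhrf1 (-0.58) and Dnmt1 (-0.54), which together copy DNA methylation after replication, fell as well, as did Cbx1 (-0.42) and Brd8 (-0.28). Polycomb genes fell in 5 of 17 cases and rose in 2. Cbx8 (-0.70 ± 0.09) and Cbx6 (-0.60 ± 0.12), chromodomain subunits, fell most, and Ezh2, the H3K27 methyltransferase that opposes Kdm6a, was at -0.30 ± 0.14 (adjusted p = 0.029). Mtf2 (0.52 ± 0.42, adjusted p = 0.0356) and the ubiquitin ligase Rnf2 (0.40 ± 0.09, adjusted p = 0.00622) rose. Mtf2 stood at 0.27, 0.29 and 1.00 in sets 1, 2 and 3, and without set 3 at 0.28 (adjusted p = 0.0444). Leaving out set 1 or set 2 ended the calls of Ezh2 (adjusted p = 0.064 and 0.135) and Brd8 (0.143 and 0.18), and leaving out set 2 that of Cbx1 (0.0576).

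Corepressor partners of the deacetylases fell in 5 of 14 cases and rose in 1. Sap18 (-0.53 ± 0.05) and the histone-binding Rbbp7 (-0.50 ± 0.16) fell most, Sin3a, the scaffold that holds Hdac1 and Hdac2, fell too (-0.40 ± 0.04, adjusted p = 0.00506), and Tbl1xr1 of the NCoR complex rose (0.60 ± 0.15, adjusted p = 0.00195). Rbbp4, the relative of Rbbp7 in the same complexes, was at -0.04. Other SWI/SNF subunits gave 4 falls and 2 rises out of 10. Dpf1 (-0.87 ± 0.10, adjusted p = 0.00025), best known from neuronal SWI/SNF, and Bcl7c (-0.53 ± 0.19) fell most, while Phf10 (0.39 ± 0.06) and Dpf2 (0.34 ± 0.10) rose. Dpf1 and Dpf2 are alternative subunits of one family. Remodellers and subunits of the ISWI and INO80 groups fell in 5 of 10 cases and rose in 0, with Baz1b (-0.60 ± 0.09) and Ruvbl2 (-0.40 ± 0.16) lowest. Leaving out set 2 ended the calls of Ruvbl2 (adjusted p = 0.0536), Ruvbl1 (0.0803), Chrac1 (0.0971) and Pole3 (0.136). Of the falls in the ISWI and INO80 groups, only that of Baz1b (0.00691) then held. The calls of Dpf2 (0.0695) and Actl6a (0.114), a SWI/SNF subunit that fell, also ended without set 2. Leaving out set 1 ended those of Dpf2 (0.0559) and Arid2 (0.241), another SWI/SNF subunit that fell. Those of Chrac1 (0.0877) and Arid2 (0.0644) also ended without set 3.

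Further methyltransferases and their cofactors divided evenly, with 3 of 12 up and 3 down. Setdb1, which places repressive H3K9 methylation and whose symbol the rule does not take, rose (0.77 ± 0.15, adjusted p = 0.000638), and Prmt2, an arginine methyltransferase, rose (0.85 ± 0.16, adjusted p = 0.000474). Dpy30, a shared subunit of the Kmt2 complexes, fell (-0.39 ± 0.16), as did Carm1 (-0.36 ± 0.05). Histone chaperones fell in 4 of 9 cases and rose in 1. Daxx, a chaperone of the H3.3 variant, rose most of all 104 genes (1.42 ± 0.20, adjusted p = 7.24e-05), and Chaf1a, which loads histones behind the replication fork, fell (-0.55 ± 0.31, adjusted p = 0.0119), as did Hira (-0.44 ± 0.18). Acetyltransferase complexes had 1 of 12 up (Ing5, 0.26 ± 0.12) and 1 down (Ing4, -0.40 ± 0.13). Of 8 other demethylases and related enzymes, Riox1 (-0.40 ± 0.12) and Phf2 (-0.32 ± 0.16) fell and 0 rose. The calls of Phf2 (adjusted p = 0.061, 0.0619 and 0.111 without sets 1, 2 and 3) and Ing5 (0.235, 0.0593 and 0.0695) ended with any set left out. Those of Carm1 (0.0583) and Ing4 (0.0564) ended without set 1 and that of Dpy30 (0.0617) without set 2. The falls of the methyltransferase cofactor Men1 (0.0829, 0.181 and 0.0745) and the chaperone Nap1l4 (0.0515, 0.107 and 0.0574) also lost their calls with any set left out. That of the chaperone Nasp lost its call without set 1 (0.0807) or set 2 (0.116).

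**Figure D4:**
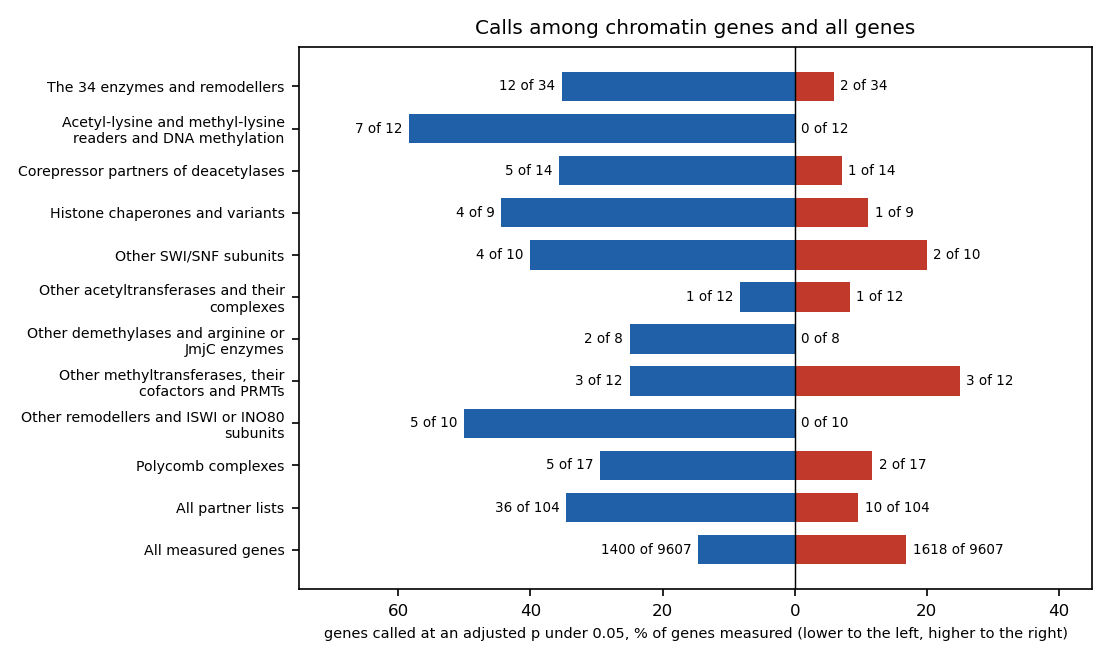
Share of measured genes called at an adjusted p under 0.05 (horizontal axis, in percent; higher to the right in red, lower to the left in blue) for the 34 enzymes and remodellers, 9 lists of partner genes, these lists together and all 9607 genes, with counts beside the bars. The 34 genes stand at 35.3% lower and 5.88% higher, against 14.6% and 16.8% of all genes.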

How the data were processed

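RNA of treated and untreated RAW 264.7 cells was compared on dual-colour arrays. The values deposited by the authors are taken as log2 channel ratios: they carry both signs and stop at 6.64, the log2 of a 100-fold ratio. No source used here states the background correction, normalization or direction. Exact zeros (9.56% to 12.9% of probes per array) were treated as missing, which touched 5 of the 43 probes of these genes (11.6%, against 15.3% of all singly named probes). The platform annotation names 1 symbol for 13738 of 16281 probes, several for 52 and none for 2491.

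Ratios were turned to treated over untreated. Probes with all 6 ratios were averaged per gene, then the orientations of one set number, and the 3 set values were tested against 0 with limma 3.58.1 in R 4.3.3 (lmFit and eBayes, two-sided, Benjamini-Hochberg adjustment over 9607 genes). The code was tested on simulated data, where it called 38% of log2 changes of 0.5 and 77% of those of 1. Far fewer genes were changed there than were called here, so these shares need not hold for these arrays. A gene that did not pass is not shown to be unchanged. Every gene of the group is described, and from each partner list up to 2 called genes per direction, with a few more picked after their values were seen (Brd2, Brd8, Cbx1, Cbx3, Uhrf1, Dnmt1, Ezh2, Sin3a and Rbbp4). Other partner genes are named only because their calls ended with a set left out. Genes, lists and motifs were chosen with earlier results of these data known.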

Additional observations from a re-analysis of the deposited data

How the results depend on the processing

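All 13 alternatives could be run for the 34 genes. The calls of Hdac5, Hdac7, Kdm3b, Smarca2, Smarcd1 and Sirt2 held in each, and the other 8 calls were lost in at least 1. The count of genes that rose was 2 as reported, 1 from the Cy5 orientation alone, 5 from the Cy3 orientation alone and 5 with no replicate block, that is with the 6 arrays as separate replicates. Both counts of 5 include Kat2b, whose mean could not be read. The count that rose was 1 to 2 with 1 set left out. The count that fell was 12, and 6 to 13 with 1 set left out. It was 9 from either orientation alone, with Kat2b among the 9 of the Cy5 orientation. Without sets 1, 2 and 3 in turn, 20.6%, 23.5% and 44.1% of the group were called, against 22.5%, 23.6% and 31.1% of all genes. The excess of calls over all genes was thus absent without set 1 or set 2. Genes that fell made up 17.6%, 20.6% and 38.2% of the group, against 10%, 9.9% and 14.7% of all genes. The median of the group was -0.08, and -0.19 on the Cy5 arrays alone. Kat2b, not called in the reported fit, turned to -0.98 on the Cy5 arrays alone. A sign change of a gene called in neither fit was not counted as a reversal. Testing each probe alone, a setting chosen after seeing the data, gave 3 genes that rose and 11 that fell. The added rise was that of Smarcd2, from a probe at 0.24 (adjusted p = 0.0495), while its other complete probe stood at -0.25. Both of these probes differed between dyes, as given above. With the set number as a random replicate block, 2 rose and 12 fell, as reported. The consensus correlation of the 2 arrays of a set was 0.393 in that fit. Deviations of the 2 arrays of a set correlated at 0.186, 0.0578 and 0.559 in sets 1, 2 and 3. Whether the arrays of a set share RNA was not tested. The causes of these changes were not tested. Ratios carry no measure of signal above background, and having 3 sets limits the precision.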
